A study of Mus musculus with 24 samples.

Results

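Interferon-stimulated genes are the genes that cells switch on when an interferon binds its receptor. The set described here holds 46 of them, chosen by name from the 55487 genes of the deposited gene table. The choice was made because their levels in the Wild type libraries of passage 11 stood apart from those of the earlier passages, so that difference is described below without a test. All 46 members passed the filter on low counts that left 15401 genes for testing.

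The study sequenced poly(A) RNA from mouse embryonic fibroblasts (MEFs) to ask which transcripts respond to an MTOR inhibitor and to an AMPK activator with and without the transcription factors TFEB and TFE3. Cells of 2 lines, Wild type (WT) and Tfeb/Tfe3 KO (KO), were given DMSO as vehicle, Torin-1, which inhibits MTOR, or MK8722, which activates AMPK. The labels give neither dose, duration, strain nor age. Each of the 6 groups had 4 libraries, and within a group every library had its own passage: 7, 8, 9 and 11 in WT and 8, 9, 10 and 11 in KO. Each genotype was a single line, so genotype and line cannot be told apart, and nothing in the labels says whether the 3 libraries of a passage were grown as separate cultures. The p-values therefore measure the spread between libraries. Library totals ran from 24668870 to 33332507 counts. RNA integrity numbers lay between 9.7 and 9.9 except in the KO MK8722 library of passage 10, at 7.9. In bulk RNA, a change in the number of cells that express a gene and a change in the RNA per cell cannot be told apart.

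Type I interferons bind the receptor IFNAR1 and IFNAR2. The kinases JAK1 and TYK2 then phosphorylate STAT proteins, which join IRF9 and bind a DNA element, the interferon-stimulated response element (ISRE), whose core is GAAA, any 2 bases and GAAA. Fibroblasts make interferon beta after viral RNA or DNA is sensed in the cytosol, and a low tonic signal keeps many of these genes at a basal level. The members are known as sensors of nucleic acid, as factors that amplify the response, and as effectors that block viral translation, replication or release.

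The core of this element was searched for in the promoters of the members. Of the 46 members, 35 had a promoter window in RefSeq (GRCm38.p6, 250 bases before to 50 after the start), and 22 of these 35 (62.9%) held this core on either strand, against 3.99% of the 27025 genes with a window. For 31 of the 35, bases just after the start matched a transcript of the gene. Near-copies such as Ifit3 and Ifit3b count separately here. The STAT element TTCNNNGAA, which can share letters with the ISRE, was present in 10 of 35 (28.6%), against 9.55% of all genes. The sequence TCACGTGA, an E-box form bound by TFEB and TFE3, was found in 0 of 35, against 1.12%. A match is only a stretch of letters, and a window without a match says nothing about the factor. The stretches below, in gene orientation with the ISRE matches in capitals, belong to members named in the results; overlapping matches run together and a match on the other strand starts and ends with TTTC.
Isg15, chr4:156200830-156200929, minus strand: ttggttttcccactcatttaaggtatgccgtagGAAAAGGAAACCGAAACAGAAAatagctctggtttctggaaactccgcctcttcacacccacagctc
Ifit1, chr19:34640759-34640858, plus strand: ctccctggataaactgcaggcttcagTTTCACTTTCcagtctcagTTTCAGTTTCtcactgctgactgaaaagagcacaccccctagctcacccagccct
Ifit3, chr19:34583362-34583461, plus strand: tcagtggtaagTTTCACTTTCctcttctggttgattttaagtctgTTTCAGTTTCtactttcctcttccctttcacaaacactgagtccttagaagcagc
Ifit3b, chr19:34607758-34607857, plus strand: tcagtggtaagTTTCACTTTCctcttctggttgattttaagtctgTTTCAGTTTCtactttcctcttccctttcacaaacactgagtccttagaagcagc
Rsad2, chr12:26456518-26456617, minus strand: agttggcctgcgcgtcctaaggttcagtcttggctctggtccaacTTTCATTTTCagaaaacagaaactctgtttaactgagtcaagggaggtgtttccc
Gbp2, chr3:142620559-142620658, plus strand: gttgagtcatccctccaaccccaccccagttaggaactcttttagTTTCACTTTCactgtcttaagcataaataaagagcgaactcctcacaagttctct
Irgm1, chr11:48871421-48871489, minus strand: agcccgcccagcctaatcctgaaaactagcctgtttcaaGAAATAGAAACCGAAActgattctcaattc
Tgtp1, chr11:48992269-48992368, minus strand: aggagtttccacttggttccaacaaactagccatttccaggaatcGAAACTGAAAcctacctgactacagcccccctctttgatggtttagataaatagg

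The stretches printed for Ifit3 and Ifit3b are the same letters, and the coding sequences of this pair are 99.1% identical. Tgtp1 and Tgtp2 are 99.7% identical over theirs. Reads of such pairs can be split between the copies by the counting, so the value of each copy is uncertain. Summed, Ifit3 and Ifit3b were at 1.54, 1.98, 4.19 and 63.1 CPM (counts scaled to library size) at passages 7, 8, 9 and 11 of WT with DMSO, and Tgtp1 and Tgtp2 at 0.154, 0.224, 1.16 and 17 CPM. In KO with DMSO the sums were 45.1, 67.7, 47.6 and 67.6 CPM and 75.3, 65.3, 68.4 and 128 CPM at passages 8, 9, 10 and 11. By position, 26 of the 46 members lie in 10 clusters, with gaps of at most 1 Mb, on GRCm38. Among them are the 4 Ifit genes on chromosome 19 (34550694 to 34650009), Oas2, Oas3 and Oas1a on chromosome 5 (120730333 to 120907521), Gbp7, Gbp3 and Gbp2 on chromosome 3 (142530342 to 142638008) and Rsad2 with Cmpk2 on chromosome 12 (26442746 to 26479837). Mx2 is annotated as a polymorphic pseudogene in the reference strain, and the other 45 members as protein coding.

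The level of the members differed between the passages of WT and was high at every passage in KO. The members were chosen on the WT difference, and passage and culture cannot be told apart, so no effect of passage is tested. The mean log2 CPM (scaled by TMM) over the 46 members, averaged over the 3 libraries of a passage, was 2.22 at passage 7, 2.06 at passage 8, 3.25 at passage 9 and 6.25 at passage 11 in WT. In KO it was 6.5, 6.69, 6.32 and 6.81 at passages 8, 9, 10 and 11. The 3 libraries of WT passage 11 thus lay near the KO libraries, and the 9 libraries of WT passages 7 to 9 lay far under both.

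**Figure D1:**
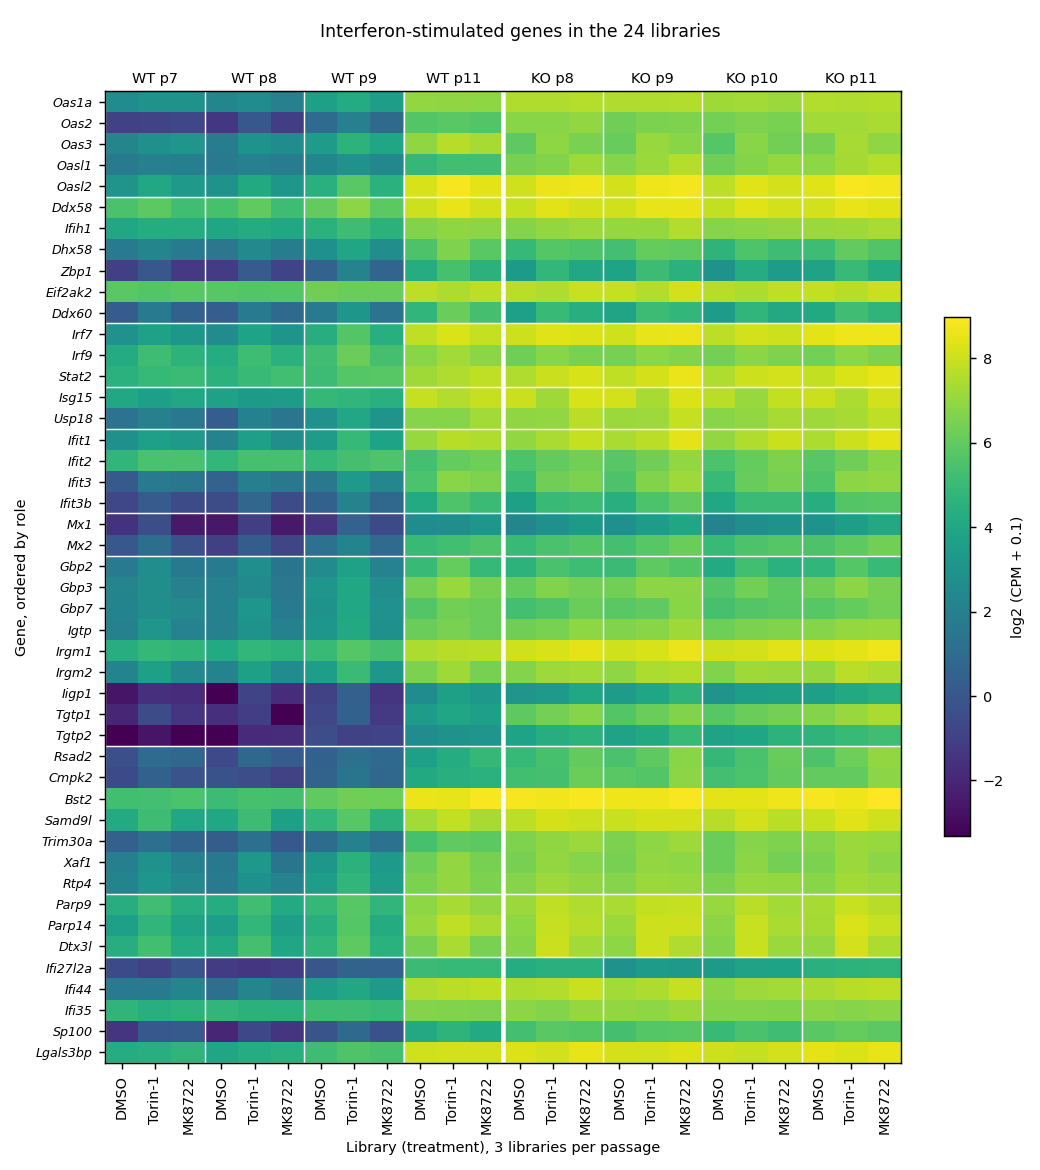
Heat map of log2 (CPM + 0.1) for the 46 members (rows, grouped by role) in the 24 libraries (columns, grouped by genotype and passage, p). The WT columns of passages 7 to 9 are dark, the WT columns of passage 11 are near the KO columns, and the passage 9 columns are slightly lighter than those of passages 7 and 8.

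Per length, in TPM, the most abundant members in KO were Bst2, which encodes tetherin and holds budding virus at the cell surface, with a median of 1053 TPM over the 12 libraries (range 871 to 1284), and Isg15, a ubiquitin-like modifier, with 629.7 TPM (370.1 to 853). Oasl2 followed with 321 TPM (178 to 414) and Irf7 with 313 TPM (198 to 398). These ranges overlap, and which of these genes was higher, Oasl2 or Irf7, changed between libraries. The lowest were Iigp1 with 6.73 TPM (4.28 to 13.9) and Mx1 with 5.64 TPM (3.21 to 10.7). Their ranges also overlap, but Iigp1 was above Mx1 in each KO library. In WT passages 7 to 9, the median was 109.9 TPM for Bst2 and 0.125 TPM for Iigp1.

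Passage 11 of WT, which the choice of the members rests on, is described first. Every member had a higher mean CPM over the 3 libraries of passage 11 than over the 9 of passages 7 to 9, by 1.59-fold (Ifit2) to 44.6-fold (Oas2), with a median of 13.2-fold. For 45 members, all but Ifit2, the 3 libraries of passage 11 were above all 9 earlier ones, a separation that 3.05% of all genes tested showed. The rise was already visible at passage 9. In each treatment, 44 of 46 members were higher at passage 9 than at passages 7 and 8, the exceptions being Ifit2 and Sp100, against 7.62% of all genes tested. These counts use the contrast on which the members were chosen, and nothing is read from them.

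The gene with the highest mean CPM in each role shows the pattern library by library. Oasl2, a member of the oligoadenylate synthetase family, stood at 7.99, 7.54, 22.3 and 301 CPM at passages 7, 8, 9 and 11 of WT with DMSO, at 16.1, 17.9, 56.6 and 444 CPM with Torin-1 and at 10.0, 9.06, 22.7 and 348 CPM with MK8722. In KO it stood at 266, 283, 213 and 331 CPM at passages 8, 9, 10 and 11 with DMSO, at 384, 399.8, 330.0 and 465 CPM with Torin-1 and at 397, 434, 280.2 and 428 CPM with MK8722. At each passage of both lines the Torin-1 and MK8722 libraries were above the DMSO library, and the step from WT passage 9 to 11 was larger than any drug effect.

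Irf7, the factor that amplifies interferon production, was at 7.28, 6.04, 19.8 and 218.6 CPM in WT with DMSO, at 13.1, 14, 51.0 and 314 CPM with Torin-1 and at 8.99, 8.06, 20.9 and 236 CPM with MK8722. Its KO values were 261, 272, 214 and 356 CPM with DMSO, 331, 365, 282 and 405 CPM with Torin-1 and 319.5, 386, 266 and 407 CPM with MK8722. Among the sensors, Ddx58 (RIG-I, which binds viral RNA ends) was at 43.5, 42.2, 65.6 and 259 CPM in WT with DMSO, 58.2, 63.3, 114 and 378 CPM with Torin-1, and 36.7, 35.3, 58.8 and 279 CPM with MK8722. Ddx58 with MK8722 was under its DMSO library at WT passages 7 to 9 and above it at every KO passage, where DMSO gave 238, 269.7, 228 and 277 CPM, MK8722 294, 382, 284 and 346 CPM, and Torin-1 345, 361, 332 and 375 CPM.

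Ifit1, which binds viral mRNA that lacks cap methylation, was at 7.07, 4.37, 10.6 and 135 CPM in WT with DMSO, 12, 12.2, 29.7 and 201 CPM with Torin-1 and 9.84, 6.69, 14 and 181 CPM with MK8722. In KO it was at 127, 169, 127 and 178 CPM with DMSO, 170.4, 210.2, 182 and 264 CPM with Torin-1, and 236, 351, 249 and 359 CPM with MK8722. The MK8722 libraries were thus the highest at each KO passage, while at each WT passage the Torin-1 libraries were. Mx2, a dynamin-like GTPase, was at most at 4.57 CPM in the early WT libraries (0.922, 0.410 and 2.42 with DMSO, 2.10, 1.15 and 4.57 with Torin-1, 0.739, 0.497 and 1.85 with MK8722). It reached 31.7, 38.4 and 47.6 CPM at WT passage 11 with DMSO, Torin-1 and MK8722, and lay between 32.1 CPM in a DMSO library and 81.0 CPM in an MK8722 library of KO.

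Irgm1, an immunity-related GTPase of the vacuole defence system, was at 19.9, 18.2, 31.7 and 173 CPM in WT with DMSO, 29.0, 27.7, 52.9 and 202 CPM with Torin-1, and 26.3, 24.9, 40.4 and 207 CPM with MK8722. All 12 KO libraries were above these, at 273, 274, 261 and 315 CPM with DMSO, 300.5, 299.9, 289 and 354 CPM with Torin-1 and 353, 387, 341 and 397 CPM with MK8722. Parp14, a mono-ADP-ribosyltransferase that works beside PARP9 and DTX3L, was at 12, 11.6, 21 and 135 CPM in WT with DMSO, 27.4, 28.3, 52.9 and 223 CPM with Torin-1 and 13.3, 11.3, 19.1 and 171 CPM with MK8722. In KO the Parp14 values were 119.6, 141, 114 and 161 CPM with DMSO, 235, 260.2, 242 and 314 CPM with Torin-1 and 199, 266, 169 and 244 CPM with MK8722, so no DMSO library of KO reached any treated one.

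The next pair moved little with the drugs. Bst2 was at 37.3, 34.1, 62.8 and 384 CPM in WT with DMSO, 39.6, 42.0, 78.1 and 369 CPM with Torin-1 and 45.1, 41.2, 77.6 and 459 CPM with MK8722, and its KO libraries overlapped across treatments between 349.6 and 501 CPM. Lgals3bp, a secreted glycoprotein that binds galectin 3, was at 19.6, 15.2, 35.1 and 269 CPM in WT with DMSO, 21.8, 19.4, 48.5 and 277 CPM with Torin-1 and 26.4, 21.9, 41.8 and 281 CPM with MK8722, and lay between 235 and 370.1 CPM in KO. Isg15 went another way with Torin-1. Its WT values were 15.7, 12.8, 28.7 and 238 CPM with DMSO, 12, 10.2, 26.9 and 186 CPM with Torin-1 and 15.8, 11.1, 22.1 and 237 CPM with MK8722, and in KO it was at 255, 282, 206 and 255 CPM with DMSO, 151, 165, 135 and 178 CPM with Torin-1, and 304, 319, 227 and 281 CPM with MK8722. Each Torin-1 library was under the DMSO library of its passage.

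**Figure D2:**
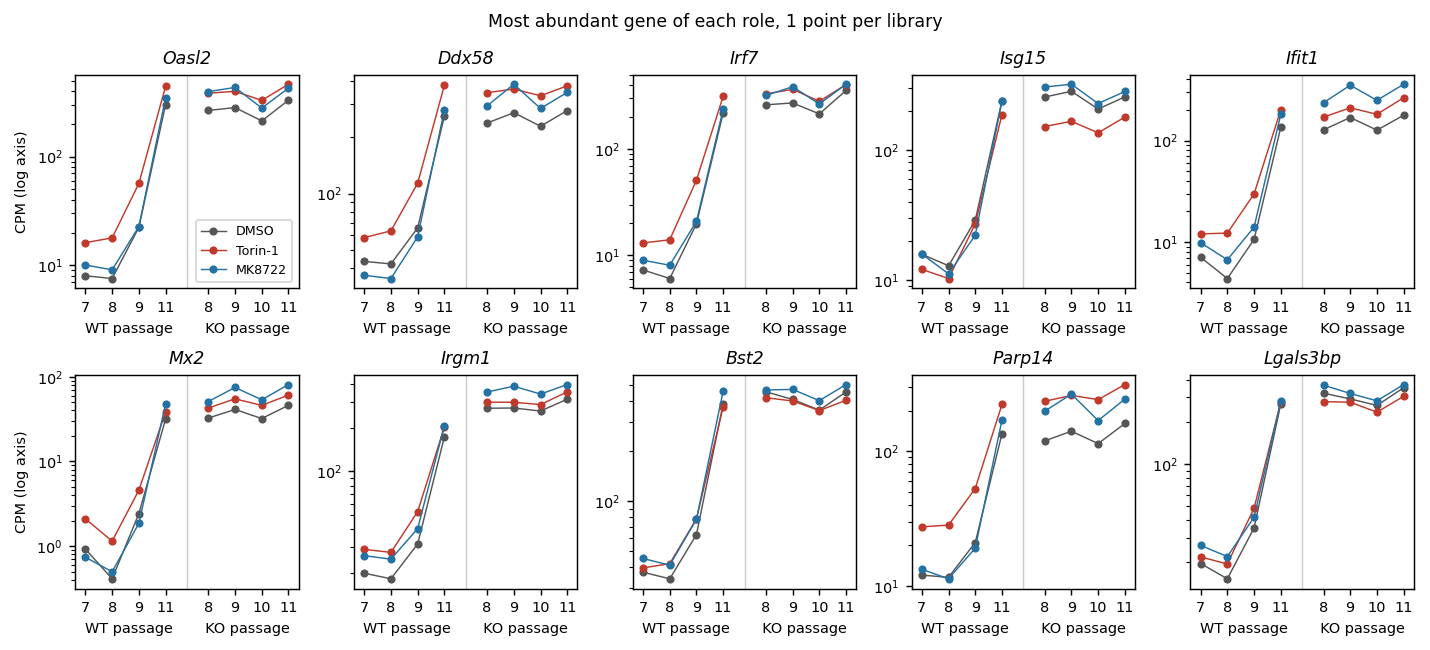
CPM on a log axis for the member with the highest mean CPM of each of 10 roles, with 1 point per library, lines joining the libraries of a treatment over passages (WT left, KO right of each panel) and colours for DMSO, Torin-1 and MK8722. WT rises from passage 9 to passage 11 in every panel, and KO varies less with passage than WT. Isg15 is the only panel in which the red Torin-1 points lie under the grey DMSO points at all 8 passages.

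Whether a drug changed the members within a passage was asked by comparing each drug library with the DMSO library of the same passage and line. The test was edgeR's quasi-likelihood test with passage as a block within genotype, and a gene was called at an adjusted p (Benjamini-Hochberg over all 15401 genes) under 0.05 and a fold of at least 1.2. Both drugs share the DMSO libraries, so their results are not independent of each other.

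With Torin-1 in WT, 37 of the 46 members rose and 1 fell, where 28.5% of all genes tested rose and 21.2% fell. The median log2 fold change over the members was 0.71, against 0.05 over all genes. Ddx60, a helicase that aids RNA sensing, rose most (log2 fold change 1.47, SE 0.12, adjusted p = 9.8e-10), followed by Ifit3b (1.45, SE 0.15, adjusted p = 1.6e-08) and Ifit3 (1.42, SE 0.10, adjusted p = 1.0e-10), which encode partners of IFIT1, then Zbp1, the sensor of Z-form nucleic acid (1.24, SE 0.11, adjusted p = 1.9e-09), and Iigp1, a GTPase of the vacuole defence system (1.19, SE 0.24, adjusted p = 0.00014). Zbp1 went from 0.399, 0.336, 1.36 and 19.3 CPM with DMSO to 0.908, 1.04, 4.35 and 41.6 CPM with Torin-1 at passages 7, 8, 9 and 11. The Torin-1 value of each passage was more than that of DMSO, over a range of passages that differ far more from each other.

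By role, all 4 IFIT genes, all 3 transcription factors (Irf7, Irf9 and Stat2), all 3 genes of the PARP9 and DTX3L group, 8 of 9 GTPases of the guanylate-binding and immunity-related families, 6 of 7 other antiviral effectors, 5 of 6 sensors and 4 of 5 OAS genes rose with Torin-1 in WT. Of the others, 1 of 2 Mx genes and 2 of 5 other induced genes rose. In the ISG15 system, Usp18, the protease that removes ISG15, rose (0.49, SE 0.19, adjusted p = 0.026) while Isg15 fell by 0.28 on the log2 scale (SE 0.08, adjusted p = 0.0033). The call of Isg15 is lost without the WT Torin-1 library of passage 11 or of passage 7, and with scaling by library size alone, where it was -0.19. The members not called were Eif2ak2 (-0.14), Ifi35 (-0.11), Ifi27l2a (-0.06), Bst2 (0.14), Oas1a (0.19), Lgals3bp (0.22), Tgtp2 (0.29) and Mx1 (0.62).

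At each of the 4 WT passages on its own, the median Torin-1 difference of the members in log2 CPM was 0.84, 1.05, 1.02 and 0.51 at passages 7, 8, 9 and 11, with 42, 41, 42 and 40 of 46 members above DMSO. Over all 4 passages, 38 members were above DMSO each time, where 38.2% of all genes tested were, and 3 were below each time (Eif2ak2, Ifi35 and Isg15), where 32.5% were. Without the passage 11 libraries of WT, 40 members rose and 0 fell, with a median of 0.98. There, 4197 of all 15401 genes rose and 3193 fell. At an unadjusted p under 0.05, 41 members of the fit with all libraries were higher and 2 lower. No share of all genes is given at that threshold, so nothing is read from these 2 counts.

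With Torin-1 in KO, 33 members rose and 1 fell, where 24.9% of all genes tested rose and 20.9% fell. The median over the members was 0.43, against 0.02 over all genes. Zbp1 rose most (1.31, SE 0.07, adjusted p = 1.4e-12), then Ddx60 (1.24, SE 0.09, adjusted p = 1.3e-10), Ifit3 (1.2, SE 0.07, adjusted p = 1.2e-12), Ifit3b (1.2, SE 0.09, adjusted p = 1.5e-10) and Dtx3l, an E3 ligase that pairs with PARP9 (1.19, SE 0.06, adjusted p = 1.7e-13). Dtx3l was at 105, 116, 104 and 129 CPM with DMSO and at 250.3, 265, 243 and 277 CPM with Torin-1 at passages 8 to 11, without overlap. All 4 IFIT genes, all 3 factors, both Mx genes and all 3 genes of the PARP9 and DTX3L group rose, as did 7 of 9 GTPases, 5 of 7 other effectors, 4 of 6 sensors, 3 of 5 OAS genes and 2 of 5 other induced genes.

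Isg15 fell by 0.66 on the log2 scale in KO with Torin-1 (SE 0.06, adjusted p = 5.5e-09), at all 4 passages. The median difference of the 46 members was alike at passages 8, 9, 10 and 11 (0.44, 0.41, 0.50 and 0.43), and 38 members were above DMSO at all 4, against 35.2% of all genes tested. The 5 members below DMSO at all 4 passages were Bst2, Eif2ak2, Ifi35, Isg15 and Lgals3bp, against 32.6% of all genes. The count of members that fell was 2 without the KO Torin-1 library of passage 11 or of passage 10. Eif2ak2 encodes PKR, the kinase that stops translation on double-stranded RNA, and its change of -0.25 (adjusted p = 0.00012) was under the fold of 1.2.

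With MK8722 in WT, 13 members rose and 0 fell, where 11.6% of all genes tested rose and 7.29% fell. The median was 0.19 over the members and -0.02 over all genes. Rsad2 (viperin, which makes a chain-terminating nucleotide) rose most (1.11, SE 0.14, adjusted p = 2.0e-06), then Ifit3 (1.05, SE 0.10, adjusted p = 7.3e-08), Ifit2 (0.76, SE 0.06, adjusted p = 1.3e-09), Ifit3b (0.74, SE 0.15, adjusted p = 0.00051) and Stat2 (0.61, SE 0.05, adjusted p = 7.5e-09). Rsad2 went from 0.707, 0.560, 1.33 and 12.3 CPM with DMSO to 1.67, 1.11, 1.73 and 29.0 CPM with MK8722. All 4 IFIT genes rose, with 3 of 7 other antiviral effectors, 2 of 5 OAS genes, 1 of 2 genes of the ISG15 system, 1 of 3 factors, 1 of 6 sensors and 1 of 9 GTPases (Irgm1), and of the PARP9 and DTX3L group and the Mx genes 0 of 3 and 0 of 2.

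The effect of MK8722 in WT differed between passages. The median member difference was 0.24 at passages 7 and 8, -0.03 at passage 9 and 0.23 at passage 11, with 36, 29, 22 and 38 of 46 members above DMSO. At all 4 passages 16 members were above DMSO, where 25.2% of all genes tested were, and 2 below (Gbp2 and Ifi35), where 27.5% were. At an unadjusted p under 0.05, 18 members were higher and 1 lower, given without a share of all genes, so nothing is read from this. Without the MK8722 library of passage 11, 7 of 46 members rose and 3 fell (Mx2, Gbp3 and Samd9l), so the count of 13 depended on that library. In the fit with all libraries, 11.6% of all genes tested rose and 7.29% fell. Without all 3 WT libraries of that passage 9 members rose and 1 fell (Samd9l), with a median of 0.11. There, 1634 of all 15401 genes rose and 971 fell. The member counts without these libraries are small, and nothing is read from them.

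With MK8722 in KO, 37 members rose and 0 fell, where 7.49% of all genes tested rose and 4.24% fell. The median was 0.48 over the members and 0.00 over all genes. Ifit3 rose most (1.52, SE 0.06, adjusted p = 3.2e-12), then Ifit3b (1.42, SE 0.09, adjusted p = 4.8e-10), Rsad2 (1.29, SE 0.07, adjusted p = 7.8e-11), Ifit2 (1.05, SE 0.05, adjusted p = 3.8e-11) and Mx1 (1.02, SE 0.16, adjusted p = 4.3e-05). Ifit3 was at 32.6, 46.4, 31.4 and 47.5 CPM with DMSO and at 94.5, 146, 86.9 and 126 CPM with MK8722, so all 4 treated libraries lay above all 4 controls. All 9 GTPases, all 4 IFIT genes, both Mx genes and all 3 genes of the PARP9 and DTX3L group rose, with 5 of 6 sensors, 5 of 7 other effectors, 3 of 5 OAS genes and 2 of 3 factors.

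The members not called with MK8722 in KO were Oas1a (0.02), Ifi35 (0.08), Lgals3bp (0.13), Bst2 (0.14), Isg15 (0.18), Samd9l (0.19), Irf9 (0.19), Oas2 (0.19) and Eif2ak2 (0.20). At all 4 passages 44 of the 46 members were above DMSO, all but Ifi35 and Oas1a, where 24.3% of all genes tested were. The median member difference was 0.55, 0.63, 0.43 and 0.36 at passages 8, 9, 10 and 11. The MK8722 library of passage 10, with the RNA integrity number of 7.9, gave a median within the range of the other passages. At an unadjusted p under 0.05, 44 members were higher and 0 lower, given without a share of all genes, so nothing is read from this.

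**Figure D3:**
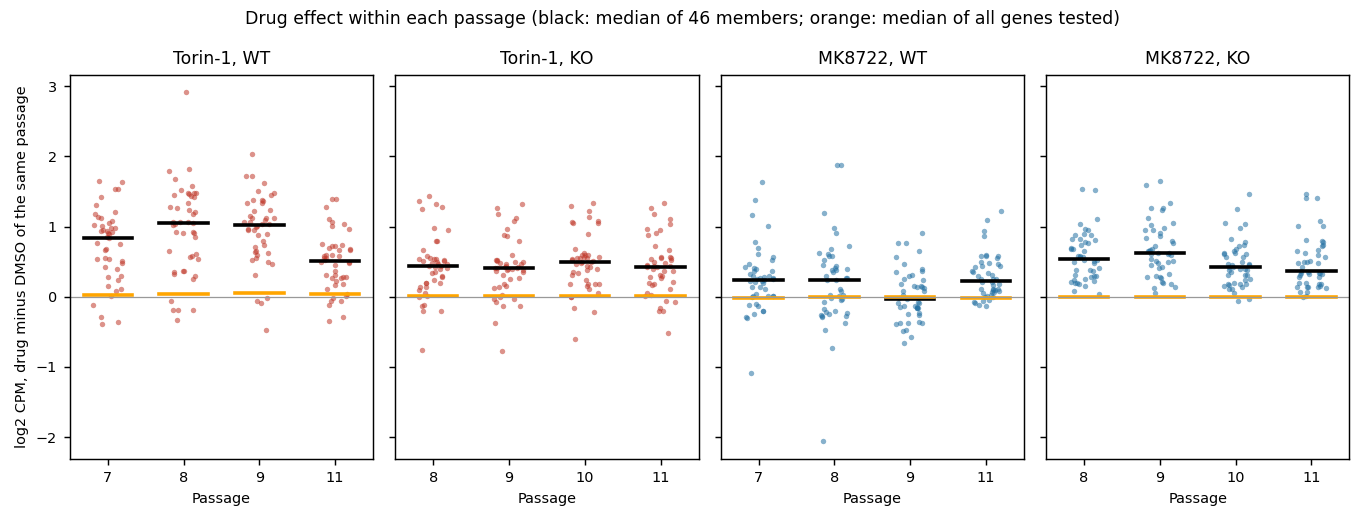
Difference in log2 CPM between each drug library and the DMSO library of the same passage (y axis) by passage (x axis), with 1 point per member, black bars for the median of the 46 members and orange bars for the median of all genes tested. The black bars lie above the orange ones in every column but MK8722 at WT passage 9, where the member median was -0.03.

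The passage block carries these calls. Without it, the spread between WT passages enters the error, and only Ifit2 was called in each of the 4 comparisons (log2 fold change 0.64 and 0.77 in WT and 0.54 and 1.05 in KO, for Torin-1 and MK8722, with adjusted p of 0.0048, 0.0026, 0.014 and 0.0003). Ifit2, which binds AU-rich viral RNA, differed least between passages: 27.1, 28.2, 28.6 and 39.8 CPM in WT with DMSO, 42.9, 41.8, 41.0 and 66.6 CPM with Torin-1 and 43.7, 42.2, 48.6 and 76.3 CPM with MK8722. In KO it was at 44.6, 54.3, 45.4 and 54.5 CPM with DMSO, 65.7, 78.5, 67.0 and 78.2 CPM with Torin-1 and 82.2, 128, 93.4 and 109 CPM with MK8722. In both lines the treated libraries were above the DMSO library of each passage.

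The response to a drug was then compared between the lines, as the drug effect in KO minus that in WT. For Torin-1, 14 members passed the call rule with a difference below 0 and 0 with one above 0, where 8.63% of all genes tested passed below 0 and 6.74% above. The median difference over the members was -0.22. The largest were Iigp1 (-0.75, SE 0.27, adjusted p = 0.045), Irf7 (-0.56, SE 0.14, adjusted p = 0.0040), Irgm2 (-0.56, SE 0.16, adjusted p = 0.011), Gbp7, a guanylate-binding protein (-0.53, SE 0.18, adjusted p = 0.035) and Xaf1, a pro-apoptotic factor (-0.49, SE 0.14, adjusted p = 0.013). In the early WT libraries Iigp1 had few counts, with 2, 0 and 13 with DMSO and 7, 13 and 40 with Torin-1 at passages 7, 8 and 9, so its WT effect there rests on these. Irgm2 rose with Torin-1 from 4.58, 4.37, 11.8 and 91.7 CPM to 12.3, 12.6, 33.7 and 149 CPM in WT, and from 105, 120.1, 98.4 and 129 CPM to 145, 173, 149 and 205 CPM in KO. Isg15 also belonged to the 14 (-0.37, SE 0.10, adjusted p = 0.0081), since it fell further in KO.

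The count of 14 depended on single libraries. It was 28 without the WT Torin-1 library of passage 11, 6 without that of passage 9, 9 without that of passage 8, 8 without the KO Torin-1 library of passage 9, 9 without the KO DMSO library of passage 11, and 9 and 8 without the WT DMSO libraries of passages 8 and 9. Without all 3 WT libraries of passage 11 it was 21, with a median of -0.46. There, 1240 of all 15401 genes passed below 0 and 971 above. By role, 5 of 9 GTPases and 2 of 3 factors were among the 14, and 0 of 3 genes of the PARP9 and DTX3L group. At an unadjusted p under 0.05, 18 members were lower and 1 higher, given without a share of all genes, so nothing is read from this.

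For MK8722 the difference ran the other way. Here 16 members passed the call rule above 0 and 0 below, where 3.16% of all genes tested passed above 0 and 5.88% below. The median difference was 0.30. The largest were Ifit3b (0.68, SE 0.18, adjusted p = 0.011), Tgtp1, a GTPase named after T cells (0.67, SE 0.20, adjusted p = 0.026), Irgm2 (0.60, SE 0.16, adjusted p = 0.015), Dtx3l (0.60, SE 0.09, adjusted p = 8.6e-05) and Gbp2 (0.59, SE 0.13, adjusted p = 0.0035). Tgtp1 had few counts in the early WT libraries, with 5, 6 and 15 with DMSO and 7, 0 and 10 with MK8722 at passages 7, 8 and 9. Ifit3b had 17, 16 and 38 with DMSO and 16, 16 and 50 with MK8722 there. Ifit3 held 66, 69.8, 69.1 and 71.4% of the summed pair with DMSO at WT passages 7, 8, 9 and 11. With MK8722 its share was 81.6, 82.0, 75.7 and 74.4%. Reads can be split between these copies, so the value of Ifit3b alone is uncertain. Dtx3l was at 19.9, 17.8, 27.6 and 86.0 CPM with DMSO and 18.5, 14.9, 23.3 and 91.7 CPM with MK8722 in WT, and in KO at 152, 182, 139.8 and 173 CPM with MK8722, above all 4 of its DMSO libraries. All 4 IFIT genes, 5 of 9 GTPases and 2 of 3 genes of the PARP9 and DTX3L group were among the 16, and 0 of 3 factors.

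This count was 26 without the WT MK8722 library of passage 11, 9 without that of passage 9 and 6 without the WT DMSO library of passage 11. Without all 3 WT libraries of passage 11 it was 18, with a median of 0.42. There, 430 of all 15401 genes passed above 0 and 841 below. At an unadjusted p under 0.05, 26 members were higher and 0 lower, given without a share of all genes, so nothing is read from this.

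**Figure D4:**
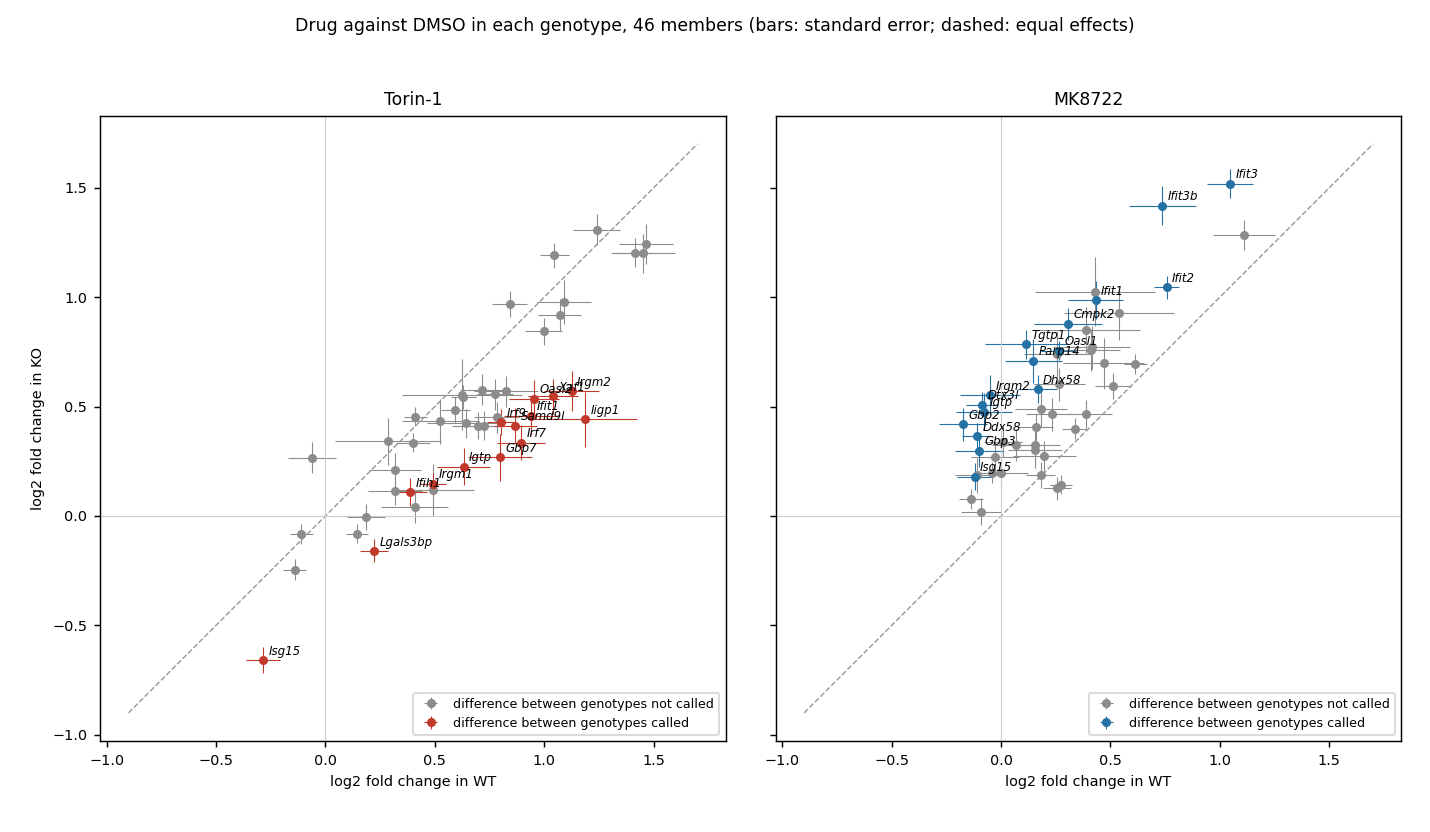
Log2 fold change of each drug against DMSO in WT (x axis) and in KO (y axis) for the 46 members, with standard errors as bars, a dashed line of equal effects, and named coloured points where the difference between the lines was called. With Torin-1 the 14 coloured points lie under the line and with MK8722 the 16 coloured points lie above it.

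KO was compared with WT under each treatment, with all 4 passages of a group. The WT values on which the members were chosen enter this comparison, so it is given as a description, no p-value is printed and nothing is read from its counts. Under DMSO, 18 members were past the call rule as higher in KO and 0 as lower, where 23.5% of all genes tested were higher and 24.6% lower. Under Torin-1 the counts were 16 and 0, against 24% and 27.8%, and under MK8722 27 and 0, against 23.3% and 25.4%. Member medians were 1.77, 1.64 and 2.06. The standard errors were wide, because each WT group holds 3 libraries with low and 1 with high values. Tgtp1 led under all 3 treatments (4.46, SE 0.99 under DMSO, 4.34, SE 0.96 under Torin-1 and 5.16, SE 1.01 under MK8722). Rsad2 (3.28, SE 0.90), Tgtp2 (3.24, SE 0.98), Oasl1 (3.24, SE 0.77) and Cmpk2 (3.23, SE 0.94) came next under DMSO, and the same genes filled the places after Tgtp1 under Torin-1 and MK8722.

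Without the WT libraries of passage 11, 46 members were past the rule as higher in KO under each treatment, with medians of 4.01, 3.32 and 4.31. The choice of members with low early WT values largely fixed this count. In that fit 3714, 3759 and 3651 of all 15401 genes were higher under DMSO, Torin-1 and MK8722. Leaving out the single WT library of passage 11 of the treatment gave 46 as well. Leaving out the DMSO library of passage 7, 8 or 9 left 10, 10 and 11 under DMSO, leaving out the Torin-1 library of passage 7, 8 or 9 left 9 each under Torin-1, and leaving out the MK8722 library of passage 7, 8 or 9 left 17, 17 and 16 under MK8722. The WT passage 11 libraries of other treatments also counted through the shared spread: without the MK8722 one, 31 were called under DMSO and 27 under Torin-1, and without the DMSO one 26 under Torin-1. All 12 KO libraries were above all 9 early WT libraries for 45 members, all but Ifit2, where 12.1% of all genes tested were.

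The KO libraries were also set beside WT passage 11 alone. The mean over the 12 KO libraries was 0.507 (Ddx60) to 7.11 (Tgtp1) times the mean over the 3 WT libraries of passage 11, with a median of 1.23, and was above 1 for 34 members. For 10 members all KO libraries lay above all 3 of these WT libraries, against 13.6% of all genes tested. They were Cmpk2, Irgm1, Oas1a, Oas2, Oasl1, Rsad2, Sp100, Tgtp1, Tgtp2 and Trim30a. For Ifi27l2a, a small mitochondrial protein, they lay below, as for 14.9% of all genes. Ifi27l2a was at 33.1, 30.5 and 30.3 CPM in WT passage 11 with DMSO, Torin-1 and MK8722 and between 7.94 and 25.3 CPM in KO. Tgtp1 was at 10.9, 15.4 and 12.3 CPM in WT passage 11, at 0 to 1.30 CPM in earlier WT passages, and at 61.3, 51.9, 54.8 and 103 CPM with DMSO, 83.2, 70.6, 74.5 and 133 CPM with Torin-1 and 108, 100.4, 84.5 and 172 CPM with MK8722 in KO.

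Passage 11 of KO was also set against the earlier passages of KO, whose libraries the choice of the members did not use. The error of this fit holds the spread between libraries of a passage and not that between passages, and passage 11 is a single passage, so the calls do not test an effect of passage and no p-value is printed. At passage 11 against passages 8 to 10, 22 members were past the call rule as higher and 0 as lower, where 2.05% of all genes tested were higher and 1.36% lower. The median was 0.24. Tgtp1 (0.84, SE 0.06), Ifi27l2a (0.81, SE 0.06), Tgtp2 (0.70, SE 0.09), Oas2, a synthetase of the RNase L activator (0.70, SE 0.06) and Rsad2 (0.61, SE 0.06) differed most. Oas2 was the only member with all 3 libraries of passage 11 above all 9 earlier KO libraries (152, 154 and 169 CPM, against 79.0 to 127 CPM), where 0.519% of all genes tested were. The count was 13 without the KO DMSO library of passage 11 and 18 without the 3 libraries of passage 8. Without those of passage 8, 197 of all 15401 genes were higher and 111 lower. In each treatment passage 11 was above passages 8 to 10 for 15 of 46 members, where 5.73% of all genes tested were, and passage 10 was below passages 8, 9 and 11 for 25 of 46 members, where 2.55% of all genes tested were. The 3 libraries of a passage may share a culture.

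The ligands of the pathway were at or near 0 in these cells. Over the 21 interferon genes listed, the summed level was 0.215 to 0.846 CPM in WT passages 7 to 9, 0.215 to 0.913 CPM in WT passage 11 and 0.0853 to 0.455 CPM in KO, and 20 of the 21 did not pass the filter. Most of those counts belonged to Ifnz, which was lower in KO under DMSO (-1.42, SE 0.56, adjusted p = 0.033). Ifnb1, the interferon beta of fibroblasts, had 3 counts in all over the 9 early WT libraries, 8 over the 3 WT libraries of passage 11 and 28 over the 12 KO libraries, with at most 5 counts in a library. By library these were 0, 0, 0 and 1 in WT with DMSO, 0, 1, 2 and 5 with Torin-1 and 0, 0, 0 and 2 with MK8722, and 2, 3, 0 and 0, 3, 1, 2 and 5, and 3, 3, 4 and 2 in KO with DMSO, Torin-1 and MK8722, in the order of passages. Ifnb1 did not pass the filter and was not tested.

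Among the receptor and kinase genes, both chains of the type I receptor and 1 kinase are given by passage. In WT with DMSO, Ifnar1 was at 80.5, 78, 78.8 and 80.8 CPM, Ifnar2 at 30.2, 29.3, 30.7 and 33.6 CPM and Jak1 at 206, 219.8, 216 and 227 CPM at passages 7, 8, 9 and 11. Under DMSO, Ifnar1 (0.31, SE 0.04), Ifngr1 (0.66, SE 0.05), Jak2 (0.49, SE 0.05) and Tyk2 (0.64, SE 0.09) were called higher in KO. Ifngr2 (0.08), Il10rb (0.09), Ifnar2 (0.09) and Jak1 (-0.23) were not called there. Ifnar1 also rose with Torin-1 in KO (0.34, SE 0.03, adjusted p = 6.9e-10). Tyk2 was past the call rule as higher at passage 11 of KO (0.27, SE 0.04). Of the 9 genes of this list, 3 rose and 1 fell with Torin-1 in WT, 4 and 1 with Torin-1 in KO, 2 and 0 with MK8722 in WT and 1 and 0 with MK8722 in KO. The shares of all genes tested that rose were 28.5%, 24.9%, 11.6% and 7.49% in that order, and nothing is read from counts this small. Tyk2 rose in all 4 (0.62, SE 0.05, adjusted p = 1.7e-10 and 0.34, SE 0.05, adjusted p = 8.4e-06 in WT, 0.52, SE 0.04, adjusted p = 1.5e-09 and 0.29, SE 0.05, adjusted p = 4.2e-05 in KO, for Torin-1 and MK8722). Jak1 fell with Torin-1 in WT (-0.38, SE 0.02, adjusted p = 7.1e-12) and in KO (-0.30, SE 0.02, adjusted p = 5.2e-10). Ifnlr1, a subunit of the lambda interferon receptor, was lower in KO under each treatment (-3.81, SE 0.17, adjusted p = 1.1e-14 under DMSO, -4.19 under Torin-1 and -4.05 under MK8722).

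Of the other factors, Irf1 was at 48.1, 51.2, 50.4 and 74.6 CPM in WT and 49.3, 58.0, 52.4 and 63.5 CPM in KO with DMSO. With MK8722, Irf1 went down in WT, by less than the fold of the call rule, and rose in KO. The MK8722 effect on Irf1 in KO minus that in WT was 0.63 (SE 0.06, adjusted p = 7.1e-08). Irf3, which drives Ifnb1, was at 50.4, 48.3, 48.3 and 43.2 CPM in WT and 73.6, 68.9, 72.5 and 70.2 CPM in KO with DMSO (0.58 higher in KO, SE 0.05, adjusted p = 1.8e-09). In the list of 10 other factors, 4, 0, 2 and 4 rose and 0, 0, 1 and 0 fell with Torin-1 in WT, MK8722 in WT, Torin-1 in KO and MK8722 in KO. In the same order, 28.5%, 11.6%, 24.9% and 7.49% of all genes tested rose and 21.2%, 7.29%, 20.9% and 4.24% fell. Nothing is read from counts this small.

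Among 14 tested genes of sensing and adaptor proteins, 5 rose and 1 fell with Torin-1 in WT and 6 rose and 3 fell in KO. With MK8722, 1 rose and 0 fell in WT and 5 rose and 0 fell in KO. Of all genes tested, 28.5% rose and 21.2% fell with Torin-1 in WT, and 24.9% and 20.9% in KO. With MK8722 these shares were 11.6% and 7.29% in WT and 7.49% and 4.24% in KO. Nothing is read from counts this small, here or in the next list. Traf3, an adaptor of several sensors, fell with Torin-1 in both lines (-0.76, SE 0.03, adjusted p = 1.1e-14 in WT and -0.88, SE 0.03, adjusted p = 3.2e-15 in KO), while Trim25, the ligase that acts on RIG-I, rose (0.60, SE 0.05, adjusted p = 2.4e-10 and 0.58, SE 0.04, adjusted p = 2.5e-10). Of 14 genes of inhibitors and nucleic acid clearance, 2 rose and 5 fell with Torin-1 in WT, and 4 rose and 3 fell in KO. With MK8722, 0 rose and 3 fell in WT (Samhd1, -0.39, Isg20, -0.37, and Trex1, -0.28), and 2 rose and 0 fell in KO (Tnfaip3, 0.45, and Trex1, 0.30). Ptpn11, a phosphatase, fell with Torin-1 in both lines (-0.66, SE 0.02, adjusted p = 5.2e-16 in WT and -0.57, SE 0.02, adjusted p = 4.6e-15 in KO). Trex1, the DNase that clears cytosolic DNA, was higher in KO under DMSO (1.23, SE 0.32, adjusted p = 0.0022).

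A second list, of 63 other interferon-stimulated genes that are no members, was counted in the same way. Of the 61 tested, 37 rose and 3 fell with Torin-1 in WT (median 0.45), 10 rose and 2 fell with MK8722 in WT (0.08), 36 rose and 0 fell with Torin-1 in KO (0.38) and 33 rose and 1 fell with MK8722 in KO (0.38), where 28.5%, 11.6%, 24.9% and 7.49% of all genes tested rose. In the same order, 21.2%, 7.29%, 20.9% and 4.24% of all genes tested fell. The response in KO minus that in WT passed the call rule above 0 for 15 and below for 2 with MK8722, and above for 3 and below for 8 with Torin-1. Of all genes tested, 3.16% passed above 0 and 5.88% below with MK8722, and 6.74% above and 8.63% below with Torin-1. The Torin-1 counts are small, and nothing is read from them. Ifi207, an AIM2-like receptor gene, rose in all 4 comparisons (1.80, SE 0.26, adjusted p = 2.9e-06 and 1.47, SE 0.28, adjusted p = 0.00019 in WT, 1.39, SE 0.10, adjusted p = 7.3e-11 and 1.76, SE 0.10, adjusted p = 7.8e-11 in KO). The list was written with earlier results of these data known and is no independent support.

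The cells carried the marker genes of fibroblasts and almost none of other lineages. Over the 14 fibroblast markers the summed level was 7732 to 9398 CPM in WT passages 7 to 9, 10795 to 11799 CPM in WT passage 11 and 7641 to 9899.9 CPM in KO, so it also stood higher at WT passage 11. Dcn and Lum, which mark many tissue fibroblasts, were at or near 0, and Thy1 was at or near 0 in KO. The 14 macrophage and leukocyte markers summed to 12 to 25.3 CPM, 12.9 to 22 CPM and 11.5 to 19.8 CPM in the same 3 sets, with Adgre1 at 0 in every library and Ptprc at most at 0.195 CPM. Summed endothelial markers reached at most 1.37 CPM, and the epithelial ones 34.0 CPM in the early WT libraries, 31.2 CPM in WT passage 11 and 72.3 CPM in KO, mainly from Krt19. The part of any of these marker levels, or of the higher fibroblast sum, in the level of the members at WT passage 11 was not tested.

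Tfeb served as a check of the labels. It was at 20.9 to 25.0 CPM in WT with DMSO and at 1.95 to 2.65 CPM in KO with DMSO, and all 12 KO libraries lay under all 12 WT libraries (1.34 to 2.65 CPM against 14 to 25.0 CPM). Tfe3 was not lower, at 119 to 122 CPM in WT and 121 to 126 CPM in KO with DMSO. The sources used here do not give the deleted part of either gene, so the Tfe3 count over the whole gene checks nothing.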

How the data were processed

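RNA of 24 MEF libraries (6 groups of 4) was sequenced in pairs of reads. Per the study's methods and the submitters' processing notes, the authors aligned reads with STAR to GRCm38 and deposited estimated counts from Salmon per gene, and TPM values; the depth per library was 24668870 to 33332507 counts. Here the deposited estimated counts were rounded, 15401 of 55487 genes passed filterByExpr (minimum count 10), and edgeR 4.0.16 (R 4.3.3, TMM, quasi-likelihood in its edgeR 3 form) was fitted to all 24 libraries with Benjamini-Hochberg adjustment over all genes. Drug contrasts had passage as a block within genotype (12 residual degrees of freedom, biological coefficient of variation 4.06%), and KO against WT had 1 mean per group (18 and 10.7%). CPM were TMM scaled, and log2 CPM used a prior count of 2. TPM served only to compare levels between genes. The scripts were tested on simulated data. No libraries were duplicates: pairs within a group differed by a chi-square of 3.80 to 39.2 per degree of freedom over 36 pairs. The study removed a batch effect that was not identified here, and the labels give all libraries the same batch, so none was removed.

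The members and lists were chosen with earlier results of these data known. Named were the member with the highest mean CPM per role, up to 5 called members per contrast and direction by size of change, up to 3 called genes per pathway list and direction, and fixed pathway genes. Other members are named where a count was small, or for their values, after these were seen. Alternatives were other scalings, filters and tools, other blocks, and libraries left out. Replicate numbers do not follow passage in the labels, and the number was not taken as a pairing. Libraries with the same number deviated together with correlations from -0.32 to 0.56, where the 0.56 came from WT libraries both of passage 11. For libraries of the same passage the range was 0.02 to 0.56, with 0.53 to 0.56 at WT passage 11. At the other passages it was at most 0.27. Promoter windows were credited to RefSeq on GRCm38.p6 and gene positions to the annotation of GRCm38. Mx2, Mx1, Dhx58, Ifi27l2a, Parp9, Iigp1, Parp14, Zbp1, Rtp4, Usp18 and Oas2 were not matched to a window. A gene of the pathway lists is not reported here.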

Additional observations from a re-analysis of the deposited data

Results flagged for a closer look

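In each WT group, the library of passage 11 was farther from the other 3 than Dixon's criterion for 4 samples allows for nearly every gene shown for its role. Chance flags about 1 in 20 groups, and the members were chosen on passage 11, so these values describe the choice. With DMSO the passage 11 values were 301 CPM for Oasl2, 259 for Ddx58, 218.6 for Irf7, 238 for Isg15, 135 for Ifit1, 31.7 for Mx2, 173 for Irgm1, 384 for Bst2, 135 for Parp14 and 269 for Lgals3bp. With Torin-1 they were 444 CPM for Oasl2, 314 for Irf7, 186 for Isg15, 201 for Ifit1, 38.4 for Mx2, 202 for Irgm1, 369 for Bst2, 223 for Parp14 and 277 for Lgals3bp. With MK8722 they were 348 CPM for Oasl2, 279 for Ddx58, 236 for Irf7, 237 for Isg15, 181 for Ifit1, 47.6 for Mx2, 207 for Irgm1, 459 for Bst2, 171 for Parp14 and 281 for Lgals3bp.

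For part of the members, the response to a drug differed between the lines by a test of the difference itself. The difference was not called for 32 of the 46 members with Torin-1 and for 30 with MK8722. Within passages, the median Torin-1 difference from DMSO was 0.84, 1.05 and 1.02 at WT passages 7, 8 and 9. It was 0.51 at WT passage 11 and 0.41 to 0.50 at the KO passages. The part of the early WT passages in the difference between the lines was not tested. For Torin-1 the difference KO minus WT passed the call rule below 0 for 14 members, where 8.63% of all genes tested did, with Iigp1 at -0.75, Irf7 at -0.56, Irgm2 at -0.56, Gbp7 at -0.53 and Xaf1 at -0.49 on the log2 scale. Isg15 was among the 14 because it fell further in KO. Leaving out 1 library at a time gave 6 to 28. For MK8722 the difference passed above 0 for 16 members, where 3.16% of all genes tested did, with Ifit3b at 0.68, Tgtp1 at 0.67, Irgm2 at 0.60, Dtx3l at 0.60 and Gbp2 at 0.59, and leaving out 1 library at a time gave 6 to 26.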

How the results depend on the processing

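Counts are of members called, with higher counts first. With the replicate block, where the replicate number of the labels took the place of passage, 2, 1, 2 and 1 rose (Torin-1 in WT, MK8722 in WT, Torin-1 in KO, MK8722 in KO, all of them Ifit2 or Dtx3l), 0 fell, the response counts were 0 and 0, and KO against WT gave 38, 27 and 42 under DMSO, Torin-1 and MK8722. Isg15 with Torin-1 in WT turned to 0.14 under this block. Of all 15401 genes, 4106, 1585, 3534 and 822 rose under it, and 3681, 3730 and 3634 were higher in KO. The numbers were not taken as a pairing, and the lower member counts are not read as a weaker effect. With no passage block 1 member rose and 0 fell in each drug comparison, and both responses were at 0. There, 4100, 1583, 3542 and 843 of all 15401 genes rose, in the order given above.

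Members that fell with Torin-1 in WT were 0 with library size alone, 0 without the WT passage 11 libraries and 2 by adjusted p alone (Isg15, Eif2ak2). With MK8722 in WT they were 1 without the WT passage 11 libraries (Samd9l) and 1 by adjusted p alone (Ifi35). With Torin-1 in KO they were 2 with no low-count filter (Isg15, Eif2ak2) and 3 by adjusted p alone. The edgeR 4 form gave 1 Torin-1 response difference called above 0 (Ifi27l2a). Passage number as an additive factor gave 42, 43 and 45 members higher in KO under DMSO, Torin-1 and MK8722, and leaving out the WT passage 11 libraries gave 46, 46 and 46. Of all 15401 genes, the additive factor gave 3696, 3764 and 3679 as higher. With the WT passage 11 libraries only, 13, 13 and 20 were higher and 3, 4 and 2 lower (Irf9, Oas3 and Ddx60, these with Dhx58, and Oas3 with Ddx60), where 3226, 3409 and 3097 of all 15401 genes were higher and 3308, 3633 and 3265 lower. This setting was chosen after seeing the data, and its lone WT library is assumed to vary like the other groups. Where no construction shows it, the cause was not tested.

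Leaving out 1 library at a time gave, for Torin-1 in WT, 32 to 40 higher and 0 to 1 lower, for MK8722 in WT 7 to 19 and 0 to 3, for Torin-1 in KO 30 to 33 and 1 to 2, for MK8722 in KO 34 to 37 and 0, for the Torin-1 response difference 0 to 1 above and 6 to 28 below 0, for that of MK8722 6 to 26 above and 0 below, and for KO against WT 10 to 46, 9 to 46 and 16 to 46 higher and 0 lower. KO passage 11 gave 13 to 23. For these fits the share of all genes is not given, and nothing is read from the counts but their spread. DESeq2's Wald test gave 38, 10, 28 and 35 members that rose in the 4 drug comparisons. Of all 15401 genes, 3937, 1610, 3610 and 1030 rose by that test. Scaling by library size alone moved the share of higher calls among all genes called from 57.4 to 68.8% for Torin-1 in WT, from 43.9 to 29.4% for its response and from 46.3 to 31.9% for KO against WT under Torin-1.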
